A study of Mus musculus with 19 samples.

Results

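The genes described are 8 mouse genes of polyamine metabolism, out of 55359 genes in the count tables of input RNA and ribosome footprints. They were grouped as genes under control during translation, which the data here do not show for each of them. They were listed by name for what they do. Earlier results of these data were known when the list was chosen. Odc1, Amd1, Srm and Sms encode the enzymes of synthesis, Oaz1 and Oaz2 the antizymes, Azin1 an antizyme inhibitor and Sat1 an enzyme of breakdown. All 8 had counts in both tables and passed the filter on low counts in every comparison.

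The cells were B16-F10, a cultured melanoma line of C57BL/6 mice. KO cells carried a knockout of Mettl5, which encodes an enzyme that methylates the RNA of the small ribosomal subunit, while SCR cells carried a scrambled control. Each genotype had 2 libraries of input RNA and 2 of ribosome footprints, the stretches of mRNA that a ribosome protects from RNase. All footprint libraries came from cells held in cycloheximide at 100 µg/ml for 8 min, with RNase digestion for 40 min at 22 °C. The count columns read as KO are named POOL, a name that the labels do not explain. The labels give neither the edited position nor whether the KO cells are 1 clone or a mixture. Nothing in them says that the libraries of a group were separate cultures, and p-values here cover only the spread between these libraries, which may be technical. In such cultures, fewer cells expressing a gene and less RNA per cell cannot be told apart.

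Mettl5 itself was examined first as a check of the labels. Levels are given in CPM, counts relative to the library total, with the total scaled by the trimmed mean of M values (TMM CPM). The scaling of these levels used all genes, while that of the tests used only genes past the filter on low counts. In footprints the printed levels therefore lie lower in KO against SCR cells than the tested fold changes do. In input RNA, Mettl5 measured 9.19 and 9.44 TMM CPM in the SCR libraries and 6.46 and 6.21 in the KO libraries, so that the groups did not overlap and the RNA was still present in KO cells. It fell by 0.56 on the log2 scale (SE 0.13, adjusted p = 0.0284, edgeR quasi-likelihood test with Benjamini-Hochberg adjustment). Mettl5 footprints measured 15.4 and 14.2 TMM CPM in the SCR libraries and 10.7 and 11.5 in the KO libraries. The footprint groups did not overlap, but the log2 fold change of -0.35 did not pass (SE 0.092, adjusted p = 0.112, same edgeR test). The check thus passed the test in input RNA only. The melanocyte genes Tyrp1, Dct and Pmel reached 3074 to 4669 TMM CPM in input RNA, while the blood cell markers Ptprc, Cd3e and Itgam were at 0 in all 4 input libraries and Cd68 at 0.959 to 2.26 TMM CPM. Library totals were 38968000 to 48692578 counts in input RNA. In footprints they were 28059683 and 31301806 in SCR cells and 14555963 and 21366608 in KO cells, so depth moves with genotype there, and its part in the results below was not tested.

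Polyamines are small positively charged molecules that bind nucleic acids and are needed for cell growth. Ornithine decarboxylase (ODC, from Odc1) makes putrescine, and spermidine synthase (Srm) and spermine synthase (Sms) extend it with aminopropyl groups that S-adenosylmethionine decarboxylase (Amd1) provides. The pathway senses its own products on the ribosome: high polyamines favour a shift of the reading frame that completes antizyme, which binds ODC and leads it to the proteasome, and they stall ribosomes on a short open reading frame (ORF) ahead of the Amd1 coding sequence. The antizyme inhibitor Azin1 resembles ODC without its activity and takes antizyme away from it, and Sat1 acetylates spermidine and spermine for export or oxidation.

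The upstream ORF of Amd1 is shown because Amd1, as counted in the deposited tables, had the fewest footprints per RNA of the members. An identical ORF lies in Amd2, a near copy of the gene. The authors' list of ORFs held no upstream ORF of Amd1 or Amd2, and outside their annotated frames only downstream ORFs. Whether the ORF shown was translated in these cells, or bears on the footprint count, was not tested. Both sequences are from RefSeq, read 5′ to 3′ on the transcribed strand, with the start and stop codons in capitals.

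Amd1 upstream ORF: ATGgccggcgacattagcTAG

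Amd2 upstream ORF: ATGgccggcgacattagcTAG

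On GRCm38.p6 these lie at chr10:40302155-40302175 and chr10:35711860-35711880, both on the minus strand and both in the 5′ UTR. The ORF of Amd1 begins at transcribed base 14 and that of Amd2 at base 12, and each has 6 codons before its stop. The genes were identical over a run of 48 bases, 11 before the start codon and 37 from it onwards. This run fills the whole stretch around the ORF that the first 50 transcribed bases of both genes share. How far the likeness reaches beyond it is not given here. The first 50 transcribed bases of each RefSeq promoter were scanned on the transcribed strand for an ATG followed in frame by a TAA, TAG or TGA. Such an ORF lay in 11.7% of 32851 promoters and in 1 of the 6 members with an entry, namely Amd1. Srm and Azin1 were without an entry.

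The annotated reading frames in the authors' list set the antizymes apart from the other members. Positions of listed ORFs are given on GRCm39, the only mouse build in the submitters' processing notes. The antizymes are the members whose annotated ORF skips 1 base, the mark of the programmed frameshift. In Oaz1 (chr10:80662594-80664835, plus strand, 227 codons) the skipped base is 80664129, after 204 coding bases. In Oaz2 (chr9:65584028-65596504, plus strand, 189 codons) it is 65593554, after 96 coding bases. A skip of 1 base occurred in the annotated ORFs of 6 genes in the list of 13248 annotated ORFs, and the other genes were A430033K04Rik, Abhd1, Acbd4 and Oas1b.

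The list held 14 ORFs outside the annotated frames of 6 of the 8 members: 5 upstream ORFs, 4 that it classes as overlapping upstream ORFs and 5 downstream ORFs. Upstream or overlapping ORFs were listed for 5 of 8 members, against 30.3% of 12270 genes with an annotated ORF and 34.9% of the 10422 of these that were expressed in both assays. Downstream ORFs were listed for 3 of 8 members, against 9.72% and 11.2% of those genes.

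Azin1 had the most, with 5. Ahead of its annotated ORF (chr15:38490608-38501749, minus strand, 448 codons) lie upstream ORFs of 113, 18 and 31 codons and an overlapping ORF of 20 codons that shares 1 base with the coding sequence. Its downstream ORF has 37 codons. Sat1 (chrX:153996496-153999164, minus strand) has an upstream ORF of 26 codons and an overlapping ORF of 44 codons that shares 58 bases with the coding sequence. Oaz2 has an overlapping ORF of 13 codons and downstream ORFs of 66 and 45 codons. Amd1 (chr10:40165328-40177854, minus strand) has 2 downstream ORFs, of 21 and 125 codons, and Amd2 has 2 of the same lengths. The single listed ORF of Sms (chrX:156229136-156253051, minus strand) has 30 codons and is classed as overlapping, although it shares 0 bases with the listed annotated ORF. Oaz1 and Srm (chr4:148676077-148678761, plus strand) had none.

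The upstream ORF of Odc1 stands ahead of the annotated ORF at chr12:17597300-17600749 on the plus strand, and its 31 listed codons begin at chr12:17595119. In the authors' list of ORFs named as larger in SCR (1614 ORFs), an Odc1 ORF with the same stop starts further upstream, at an ACG codon, and runs over 37 codons at transcript bases 307 to 420, where the main coding sequence begins at base 490. The authors' deposited table gives it 70 P-sites (the ribosome's decoding position) in its own frame against 86 and 36 in the other frames, or 36.5% in frame, where the median ORF of that list had 68.8%. Its own frame was not the one with the most P-sites, which held for 6.38% of the list. The authors' deposited table gives it an RPKM of 7.35, above the list's median of 5.05, and an adjusted p of 0.0411.

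A downstream ORF of Oaz2 (chr9:65596520-65596720, plus strand, ATG start, 66 codons) is in the authors' list of ORFs named as larger in KO (1383 ORFs). The authors' deposited table gives it 9, 1 and 1 P-sites in the 3 frames and an RPKM of 0.530, below that list's median of 3.72. These lists give 1 value per ORF with no library named, so neither entry has a replicate check, and the sources used here do not say by which measure an ORF was named larger.

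All 8 mRNAs carried few footprint counts for their input RNA counts. The ratio of mean footprint CPM to mean input CPM, each relative to the library total, was below the median of 10422 expressed genes for all 8 members in both genotypes. That median was 0.526 in SCR and 0.588 in KO cells. In SCR cells the members ran from 0.0428 to 0.371 with a median of 0.179, and 6 of 8 lay below the lower quartile of 0.282. In KO cells they ran from 0.0540 to 0.351 with a median of 0.204, and 6 of 8 again lay below the lower quartile, 0.315. The ratio has no term for length. A gene whose coding sequence is a small part of its mRNA can have a low ratio without weaker translation. How far this bears on the places of the members among all genes was not tested.

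**Figure D1:**
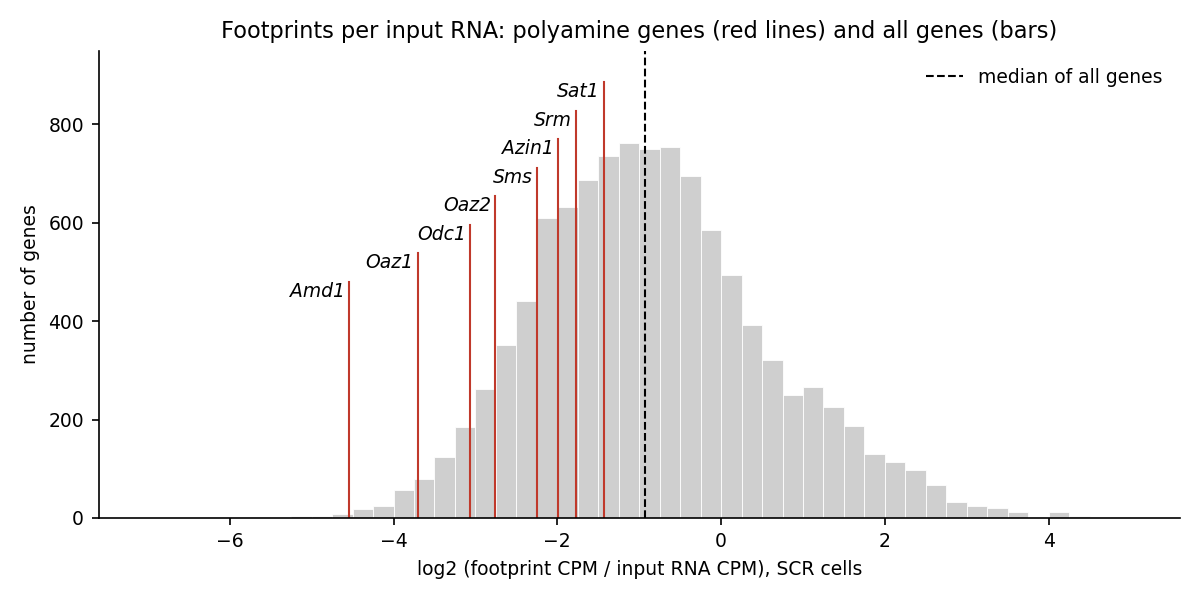
Ratio of footprint CPM to input RNA CPM in SCR cells on a log2 axis, with bars for the number of genes out of 10422, red lines for the 8 polyamine genes and a dashed line for the median of all genes. All 8 lines lie left of the median, from Amd1 at a ratio of 0.0428 to Sat1 at 0.371.

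As counted, with the reads of near copies left out, Amd1 was lowest, at 0.0428 in SCR and 0.0540 in KO cells, and 0.154% and 0.451% of genes were lower. Oaz1 followed at 0.0767 and 0.0701, with 1.23% and 0.931% of genes lower. Odc1 stood at 0.119 and 0.0961, with 4.27% and 2.42% of genes lower. These 3 mRNAs encode the decarboxylases of the pathway and the antizyme of ODC. Next came Oaz2, at 0.147 in SCR and 0.165 in KO cells, and Sms, at 0.210 and 0.244. Azin1 measured 0.252 and 0.351 and Srm 0.293 and 0.266. Sat1 was highest in SCR cells at 0.371 and measured 0.330 in KO cells, where Azin1 was above it. The ratios are a description of pooled group means and were not tested.

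For 4 members, near copies elsewhere in the genome took up counts, and they did so far more in footprints than in RNA. Retrocopies and paralogs share sequence with their parent. The pseudogene Oaz1-ps held 5.97% of the summed counts of Oaz1 and its copy in SCR input RNA, but 43.8% in SCR footprints. Oaz2-ps held 3.89% and 38.6%, and Sms-ps 11.02% and 45.8%. The 7 copies of Amd1, namely Amd2 and 6 pseudogenes, held 23.2% of the input counts and 66.6% of the footprint counts. Shares in KO cells were close by, at 44.6% for Oaz1, 38.9% for Oaz2, 45.4% for Sms and 68.9% for Amd1 in footprints. Levels of these 4 members are therefore uncertain as levels of the parent gene, and how the authors assigned shared reads is not stated in their notes.

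**Figure D2:**
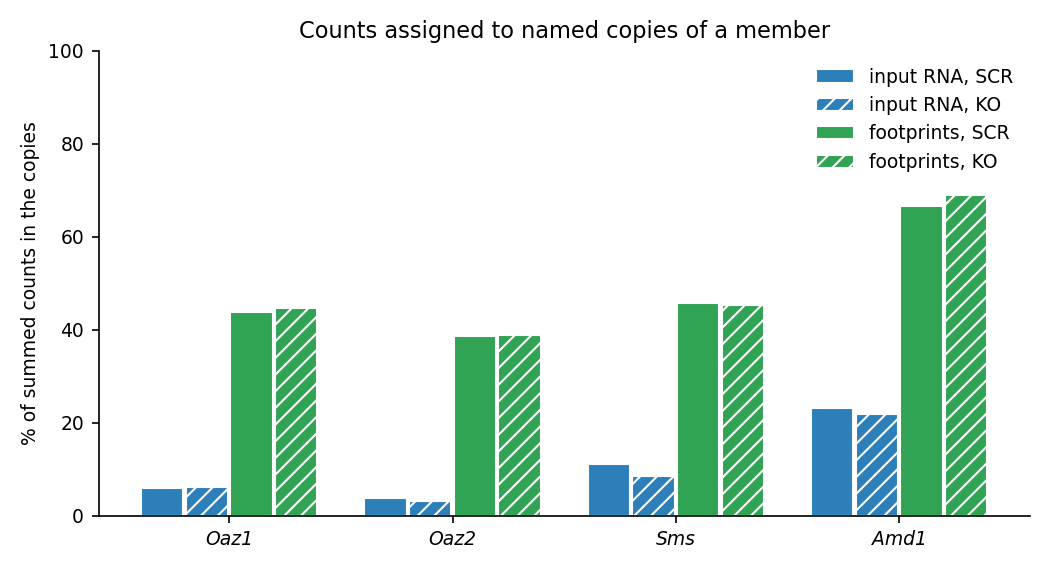
Share of the summed counts of a member and its named copies that was assigned to the copies, in percent, for input RNA (blue) and footprints (green) in SCR (plain) and KO (hatched) cells. For Oaz1 the share is 5.97% in input RNA and 43.8% in footprints of SCR cells, and in all 4 genes the footprint bars are the taller ones.

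With copies added back, a setting chosen after seeing the data, the ratio of footprints to RNA in SCR cells was 0.128 for Oaz1, 0.231 for Oaz2, 0.345 for Sms and 0.0985 for Amd1. In KO cells it was 0.119 for Oaz1, 0.262 for Oaz2, 0.408 for Sms and 0.135 for Amd1. All 4 were below the median of all genes in both genotypes. Sms was then above the lower quartile, 0.282 in SCR and 0.315 in KO cells, so that fewer than 6 of 8 members lay below it. Amd1 remained the lowest member in SCR cells, with 2.59% of genes lower, but not in KO cells. There 5.39% of genes were lower than Amd1, 4.18% lower than Oaz1 and 2.42% lower than Odc1, so that Odc1 was lowest. No copies of Odc1, Srm, Azin1 or Sat1 were summed.

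Per length, the members fell in a different order, which turned on the copies. As counted, without copies, footprint CPM per kilobase of annotated coding sequence in SCR cells was highest for Srm, at 30.6 ± 2.34 (SD, n = 2). Azin1 followed at 27.7 ± 1.09, then Oaz1 at 24.6 ± 2.67, Sat1 at 24.01 ± 0.229 and Odc1 at 23.3 ± 2.13. Oaz2 stood lower at 11.5 ± 0.680, and Amd1 and Sms were lowest at 8.35 ± 0.169 and 8.14 ± 0.280. Neighbours in the order from Srm to Odc1, and Amd1 and Sms, differed by no more than the sum of their SDs, while Oaz2 stood apart from Odc1 above and Amd1 below. KO cells gave the same order, from 37.7 ± 1.81 for Srm to 10.1 ± 0.105 for Sms.

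With the counts of copies added and divided by the parent's coding length, Oaz1 was highest, at 43.8 ± 4.26 in SCR and 50.7 ± 1.10 in KO cells (SD, n = 2). Amd1 moved to 24.98 ± 0.028 in SCR cells, above Sat1 and Odc1, and to 37.2 ± 1.95 in KO cells, beside Srm and Azin1. Oaz2 moved to 18.8 ± 1.03 in SCR and 20.2 ± 3.14 in KO cells. Sms remained lowest, at 15.0 ± 0.465 and 18.4 ± 0.561. The places of Oaz1 and Amd1 in the order thus depend on how the reads of copies are assigned.

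In input RNA, 4 of 8 polyamine genes rose in KO cells and 0 fell, where 16.8% of 20025 genes passed the test, 9.56% upwards and 7.21% downwards. The risers were Odc1 and Srm of the synthesis arm, the antizyme Oaz1 and the acetylase Sat1. The median log2 fold change of the members was 0.27 (range 0.0011 to 0.51), beside -0.0061 over all genes. Both KO libraries lay above both SCR libraries for 6 of 8 members, as they did for 31.1% of all genes. All 8 fold changes were above 0 and above the all-gene median, but Oaz2 and Azin1 turned to -0.068 and -0.057 when libraries were scaled by their totals only. Each log2 fold change is KO minus SCR, and the tests use edgeR's quasi-likelihood fit with Benjamini-Hochberg adjustment over all genes tested.

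Odc1, the enzyme of the first step, measured 260 and 268 TMM CPM in SCR and 392.2 and 359 in KO libraries. Both KO libraries stood above both SCR libraries. The log2 fold change was 0.51 (SE 0.056, adjusted p = 0.00350 by edgeR's quasi-likelihood test). Srm, which makes spermidine, measured 91.2 and 93.8 TMM CPM in SCR and 137 and 126 in KO libraries, again without overlap, and its log2 fold change was also 0.51 (SE 0.058, adjusted p = 0.00406 by the same edgeR test). Odc1 and Srm passed under each of the 11 other settings and left-out libraries.

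Oaz1, the major antizyme, measured 222 and 206 TMM CPM in SCR and 306 and 253 in KO libraries. The groups did not overlap, with the first KO library the highest. Its log2 fold change was 0.39 (SE 0.091, adjusted p = 0.0307, edgeR). This call was lost without SCR library 1 (adjusted p = 0.0619), without SCR library 2 (0.115) and without the filter on low counts (0.105, edgeR). Without KO library 1 the log2 fold change was 0.24 (adjusted p = 0.0377, edgeR).

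Sat1 measured 33.7 and 31.1 TMM CPM in SCR and 42.0 and 39.6 in KO libraries, without overlap. Its log2 fold change was 0.33 (SE 0.073, adjusted p = 0.0238, edgeR). The call was lost without SCR library 1 (adjusted p = 0.0582), SCR library 2 (0.152) or KO library 1 (0.0827), and without the filter (0.0703, edgeR). The calls of Oaz1 and Sat1 thus changed with single libraries, and those of Odc1 and Srm did not.

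The other members did not pass in input RNA. Amd1, the source of aminopropyl groups, measured 188 and 193 TMM CPM in SCR and 233 and 207 in KO libraries, with a log2 fold change of 0.21 (SE 0.065, adjusted p = 0.0709, edgeR). Its groups did not overlap, and it passed without KO library 2 (0.29, adjusted p = 0.00428, edgeR) and with DESeq2 (0.20, adjusted p = 0.0191). Without KO library 1 it was lower, at 0.12 (adjusted p = 0.138, edgeR), and with library totals 0.14 (adjusted p = 0.136, edgeR). Sms, which makes spermine, measured 37.3 and 38.0 TMM CPM in SCR and 43.7 and 40.6 in KO libraries, with a log2 fold change of 0.16 (SE 0.066, adjusted p = 0.140, edgeR).

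Azin1 measured 142 and 146 TMM CPM in SCR and 149 and 142 in KO libraries, and Oaz2 43.7 and 42.9 in SCR and 46.1 and 40.6 in KO libraries. The log2 fold changes were 0.011 (SE 0.050, adjusted p = 0.903) and 0.0011 (SE 0.077, adjusted p = 0.994) by edgeR. These were the members whose input RNA overlapped between the genotypes, an antizyme and the antizyme inhibitor.

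**Figure D3:**
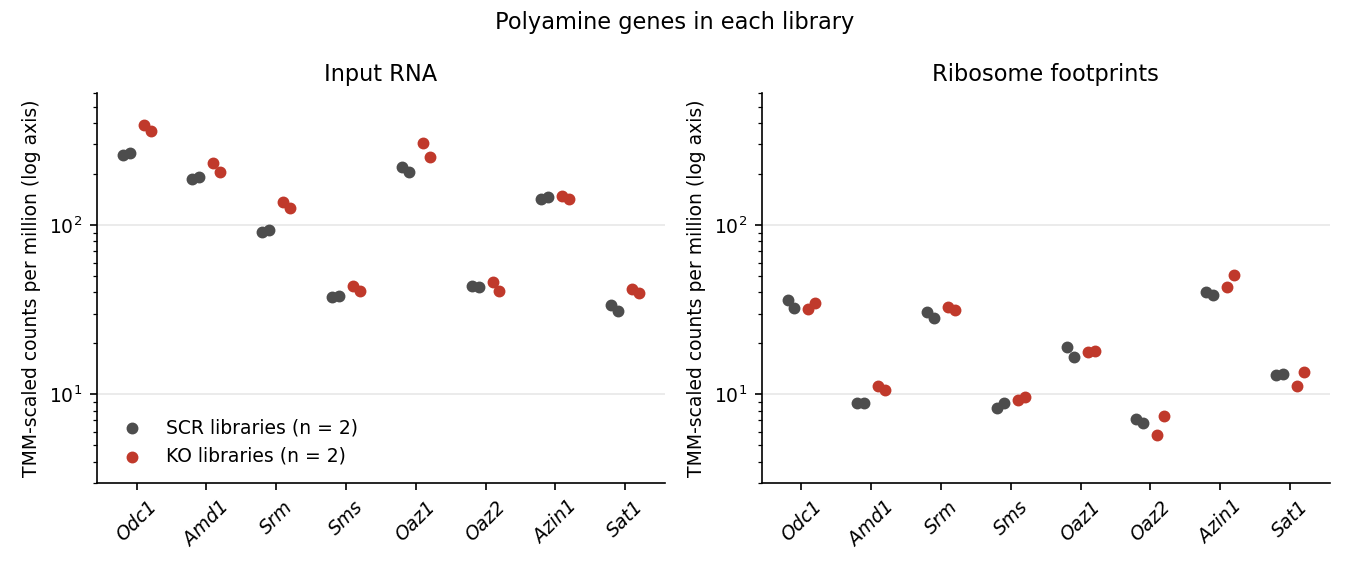
TMM CPM on a log axis for the 8 polyamine genes in the 4 input RNA and the 4 footprint libraries, with SCR in grey and KO in red and 1 point per library. In input RNA the KO points of Odc1 (392.2 and 359) and Srm (137 and 126) stand above the SCR points, and in footprints those of Odc1 overlap.

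In footprints, 0 of the 8 members passed the test by edgeR, where 2.29% of 16878 genes did, 0.51% upwards and 1.78% downwards. At an unadjusted p below 0.05 by edgeR, 2 of 8 members (Amd1 and Azin1) had a difference, where 4224 of 16878 genes did. These shares are alike, so the count is no result about the members. The other tools run, limma voom and DESeq2, also called 0 of the members, but DESeq2 gave Oaz2 and Sms no adjusted p. The median log2 fold change of the members was 0.13 (range -0.014 to 0.36), beside 0.0066 over all genes. Both KO libraries lay above both SCR libraries for 4 of 8 members, against 20.9% of all genes, while both lay below for 35.9% of all genes. These shares rest on the printed levels, whose scaling differs from that of the tests.

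Odc1 footprints measured 36.1 and 32.3 TMM CPM in SCR and 31.7 and 34.6 in KO libraries. The groups overlapped, and the log2 fold change was 0.022 (SE 0.085, adjusted p = 0.905, edgeR). Without the filter, where the scaling is that of the printed levels, the value for Odc1 was -0.044. Its higher RNA thus had no counterpart of that size in the footprint counts. Srm footprints measured 30.8 and 28.2 TMM CPM in SCR and 32.7 and 31.6 in KO libraries, with a log2 fold change of 0.19 (SE 0.079, adjusted p = 0.222, edgeR) and no overlap.

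Footprints of Amd1, the decarboxylase that feeds the synthases, measured 8.93 and 8.85 TMM CPM in SCR and 11.2 and 10.6 in KO libraries, without overlap, and the log2 fold change was 0.36 (SE 0.094, adjusted p = 0.111, edgeR). It was 0.31 to 0.40 with a footprint library left out. Its near copy Amd2, with the same upstream ORF, had a log2 fold change of 0.37 (SE 0.095, adjusted p = 0.108, edgeR) in footprints and 0.097 in RNA. With the counts of all copies added to their parents, a setting chosen after seeing the data, Amd1 footprints passed at 0.46 (SE 0.065, adjusted p = 0.0481, edgeR). Amd1 and Amd2 share sequence, so that their counts are not independent.

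Azin1 footprints measured 40.2 and 38.8 TMM CPM in SCR and 42.9 and 51.0 in KO libraries. The groups did not overlap, the second KO library was the highest, and the log2 fold change was 0.32 (SE 0.090, adjusted p = 0.127, edgeR). Without that library it was 0.19, and without the first KO library 0.42 (adjusted p = 0.309 and 0.137, edgeR), so that Azin1 stood above or below Amd1 depending on the library. Sms measured 8.33 and 8.92 TMM CPM in SCR and 9.21 and 9.68 in KO libraries, with a log2 fold change of 0.20 (SE 0.094, adjusted p = 0.272, edgeR).

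The antizymes and Sat1 overlapped between genotypes in footprints. Oaz1 measured 19.02 and 16.6 TMM CPM in SCR and 17.9 and 18.1 in KO libraries, with a log2 fold change of 0.079 (SE 0.098, adjusted p = 0.668, edgeR). Oaz2 had 7.16 and 6.72 in SCR and 5.72 and 7.44 in KO libraries, and Sat1 13.1 and 13.1 in SCR and 11.2 and 13.5 in KO libraries. Their log2 fold changes were -0.0077 for Oaz2 (SE 0.15) and -0.014 for Sat1 (SE 0.11), and they turned to 0.10 and 0.094 when libraries were scaled by their totals only.

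Translational efficiency, the change in footprints relative to the change in RNA, was tested with an interaction term between genotype and assay in a fit of the 8 libraries. It shares these libraries with both comparisons above and is no independent evidence of them. Of the 8 members 1 fell, Odc1, and 0 rose, where 4.19% of 23211 genes passed the test, 3.4% downwards and 0.788% upwards. The median of the members was -0.19 (range -0.53 to 0.27), beside -0.055 over all genes. Relative to that all-gene median, 4 members lay below and 4 above.

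Odc1 fell by 0.53 on the log2 scale (SE 0.10, adjusted p = 0.0392, edgeR's quasi-likelihood test). In the authors' deposited table, Odc1 has an efficiency of 0.0712 in SCR and 0.0489 in KO cells, a log2 fold change of -0.54 and an adjusted p of 0.0154. The authors' deposited table was made from the same libraries and calls 10.9% of 16872 genes, 8.69% downwards and 2.17% upwards. The direction was the same in the 15 other settings and left-out libraries tried here, with values between -0.68 and -0.31 and adjusted p between 0.000701 and 0.157.

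The call itself was lost in 9 of those 15. With a library left out the value stayed between -0.68 and -0.47, but the adjusted p by edgeR was 0.157 and 0.132 without the first or second SCR input library and 0.138 and 0.0510 without the first or second KO input library. Without the first SCR, second SCR or first KO input library, only 3, 0 and 0 of all genes tested passed, so these fits say little about Odc1 in particular. The adjusted p was 0.0683 without the first SCR and 0.0714 without the first KO footprint library. With limma voom the adjusted p was 0.0758, and DESeq2 gave -0.50 with an adjusted p of 0.000701. With a term for the replicate number the value was -0.52 with an adjusted p of 0.125 (edgeR), a fit in which 0 of all 23211 genes passed.

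Scaling bears on the zero point of this comparison. With library totals in place of TMM, the all-gene median of translational efficiency moved from -0.055 to 0.15, and the share of calls that were rises went from 18.8% to 76.8%, in input RNA from 57% to 39.3% and in footprints from 22.2% to 65.2%. Odc1 then had -0.31 (adjusted p = 0.121, edgeR), and Azin1 passed instead at 0.48 (adjusted p = 0.0369, edgeR). Set against the all-gene median, Odc1 was at -0.47 with TMM and -0.46 with library totals, and Azin1 at 0.32 and 0.34. A change of scaling shifts all genes by about the same amount, which the subtraction of the median removes. These values had to stay close and are no separate support for either member.

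**Figure D4:**
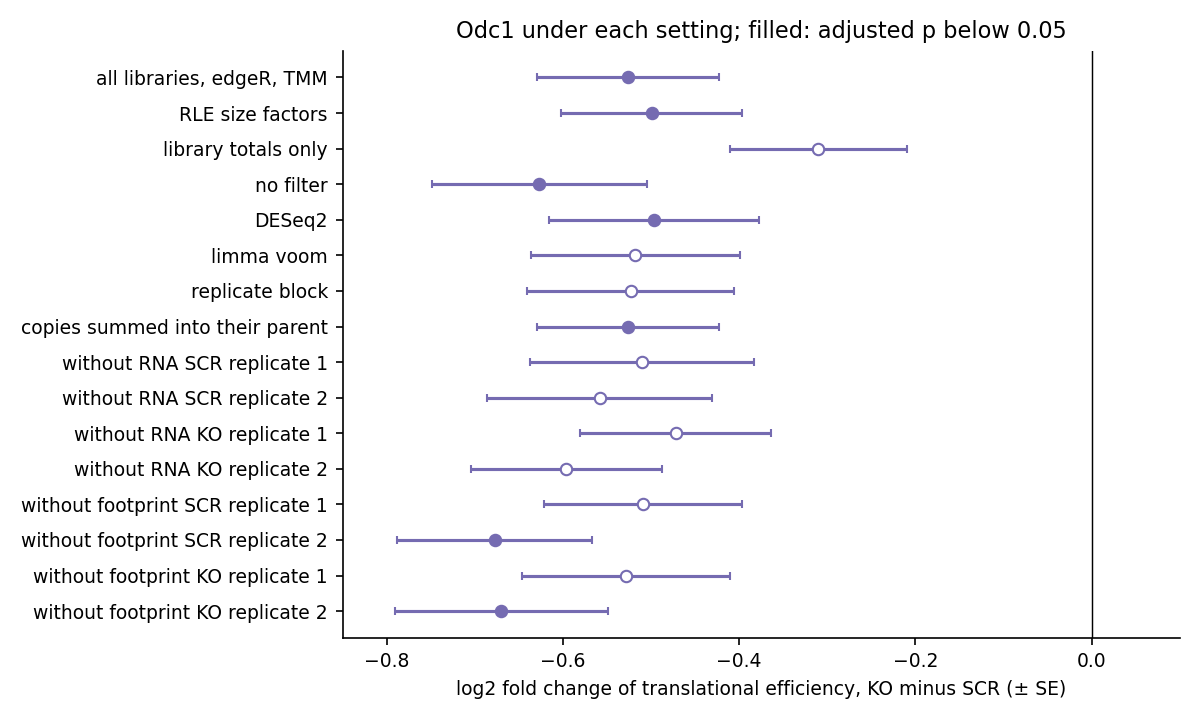
Log2 fold change of the translational efficiency of Odc1 (KO minus SCR, points, with bars for the SE) under each setting and with each library left out, where filled points have an adjusted p below 0.05. All points lie below 0, between -0.68 and -0.31, and 9 of the 15 alternatives are open.

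The other members did not pass. Sat1 had a log2 fold change of translational efficiency of -0.38 (SE 0.13, adjusted p = 0.161, edgeR), Srm of -0.35 (SE 0.094, adjusted p = 0.0829, edgeR) and Oaz1 of -0.34 (SE 0.15, adjusted p = 0.244, edgeR). Together with Odc1, these are the 4 members whose RNA rose. A rise in RNA that footprints do not follow lowers this value by its definition, so the match is no separate result. Azin1 was at 0.27 (SE 0.11, adjusted p = 0.219, edgeR), but at 0.059 (adjusted p = 0.825, edgeR) without the second KO footprint library. Amd1 was at 0.11 (SE 0.11, adjusted p = 0.654, edgeR), Sms at -0.0029 and Oaz2 at -0.040, and the last pair turned to 0.21 and 0.18 with library totals.

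The authors' deposited table puts the others in like places. Its efficiencies are the ratios computed here times a nearly constant factor within each genotype, so this likeness is no separate evidence. In the authors' deposited table Srm has a log2 fold change of -0.37 (adjusted p = 0.0606), Sat1 of -0.40 (0.253), Oaz1 of -0.36 (0.345) and Azin1 of 0.25 (0.420). Amd1 has the lowest efficiency of the members in the authors' deposited table, 0.0256 in SCR and 0.0274 in KO cells.

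**Figure D5:**
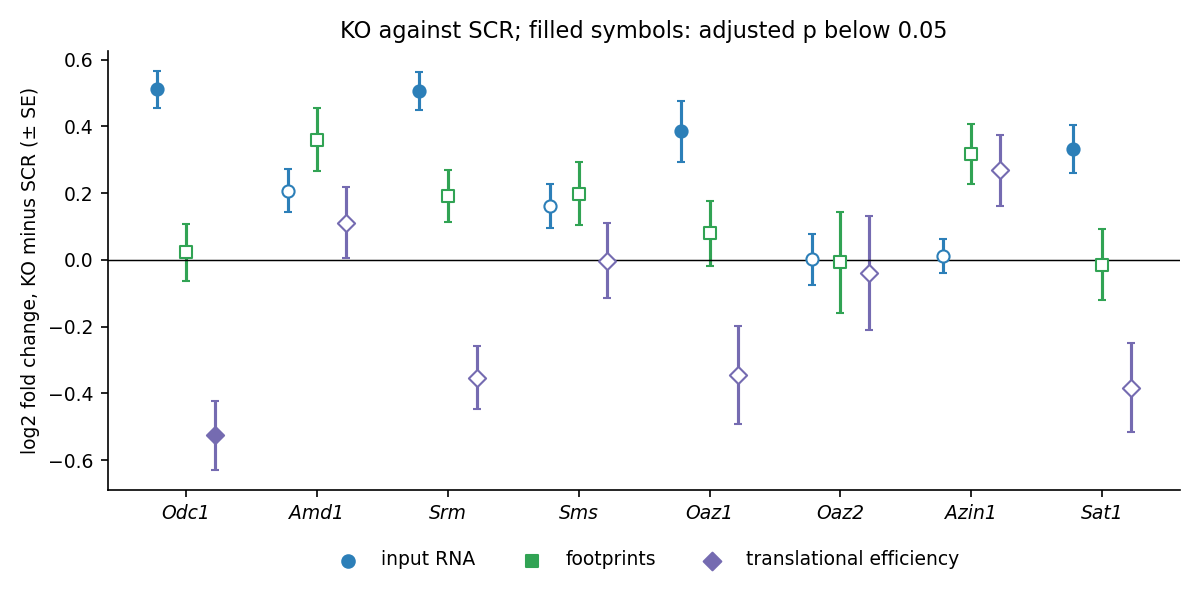
Log2 fold change (KO minus SCR, with bars for the SE) of the 8 polyamine genes in input RNA, footprints and translational efficiency, where filled symbols have an adjusted p below 0.05. Filled symbols are Odc1, Srm, Oaz1 and Sat1 in input RNA and Odc1 at -0.53 in translational efficiency.

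The wider pathway list held 32 genes of ornithine and S-adenosylmethionine supply, methylthioadenosine salvage, back-conversion, transport and hypusine formation. In input RNA 26 were tested, 6 rose and 0 fell, where 9.56% and 7.21% of all genes did, with a median of 0.087 on the log2 scale. Dhps and Dohh, the enzymes that use spermidine to make hypusine on the translation factor eIF5A, rose by 0.55 (adjusted p = 0.00645) and 0.58 (0.0178) by edgeR. Mri1 and Enoph1, which recycle methylthioadenosine left by spermidine and spermine synthesis, rose by 0.52 (adjusted p = 0.0104) and 0.40 (0.0141, edgeR). Slc3a2, the heavy chain of amino acid transporters, rose by 0.35 (adjusted p = 0.0117) and Myc, a transcription factor that acts on Odc1, by 0.22 (0.0226, edgeR). Eif5a itself did not pass, at 0.15 (adjusted p = 0.0730, edgeR).

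In footprints 23 of the 32 were tested, 1 rose and 1 fell, where 2.29% of all genes passed in either direction, with a median of -0.089. Mat2a, which makes S-adenosylmethionine, measured 77.8 and 77.2 TMM CPM in SCR and 123 and 110 in KO footprints, and rose by 0.66 (SE 0.085, adjusted p = 0.0429, edgeR). Atp13a2, a lysosomal polyamine exporter, measured 285 and 272 TMM CPM in SCR and 155 and 155 in KO footprints, and fell by 0.78 (SE 0.060, adjusted p = 0.0196, edgeR). Neither passed in input RNA, where they had 0.084 and 0.091. In translational efficiency 27 were tested, with a median of -0.12, where 4.19% of all genes passed. Mat2a rose by 0.53 (adjusted p = 0.0328), while Atp13a2 fell by 0.91 (0.0205) and Slc3a2 by 0.52 (0.0361, edgeR). Slc3a2 had -0.13 in footprints, which did not pass, so its rise in RNA enters this value by definition.

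A list of 8 other mRNAs known for upstream ORFs was set beside the members. In input RNA 4 of these 8 rose, where 9.56% of all genes did, namely Atf4, Ppp1r15b, Ifrd1 and Eif5, with a list median of 0.21, and 0 of 8 passed in footprints, with a median of -0.15. In translational efficiency 3 of 8 fell, where 3.4% of all genes did. The stress-response transcription factor Atf4 fell by 0.63 (adjusted p = 0.0231, edgeR). Ppp1r15b, a phosphatase subunit that acts on eIF2, fell by 0.81 (0.0205) and Ifrd1 by 0.67 (0.0205, edgeR). All 3 are among the risers in RNA, and a rise that footprints do not follow lowers this value by its definition. Their footprint log2 fold changes were -0.066 for Atf4, -0.45 for Ppp1r15b and -0.044 for Ifrd1. The translational efficiency values of that list ran from -0.81 to -0.11 with a median of -0.36. The median was -0.19 for the polyamine genes and -0.055 over all genes. A difference between these lists was not tested. Calls of this list and of the wider pathway list were not followed through the other settings. With a term for the replicate number, 0 of all genes passed in footprints and in translational efficiency.

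Across the 8 libraries, the profile of Odc1 over both assays was nearest to those of Gm6807, Gm6136 and Ctbp1 among 6170 genes with a mean of at least 4 log2 CPM in both assays. Likeness was the root mean square difference of centred log2 values, 0.0303, 0.0321 and 0.0332 in that order. Gm6807 and Gm6136 are pseudogenes in RefSeq. Oaz1 was nearest to Cuta (0.0357), Arpc4 (0.0370) and Rplp2 (0.0426).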

How the data were processed

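The members and gene lists were chosen with earlier results of these data known. The authors deposited an estimated count (expected count) per gene and library, as whole numbers, not normalized. The submitters' processing notes name STAR 2.7.10a, StringTie 2.1.7 and GRCm39 without roles, with no word on strand. Count columns named POOL were read as KO, since the others are named SCR. Translational efficiency in the authors' deposited table is a ratio for each genotype, with a log2 change and a p-value; the tool and the ORF caller are not given in the sources used here. ORF lists hold a deposited count of P-sites per frame and an RPKM, per the file headers.

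Counts were fitted in R 4.3.3 with edgeR 4.0.16 (TMM, filtering by expression, quasi-likelihood test of genotype, or of genotype by assay for translational efficiency) on the whole tables, at a Benjamini-Hochberg adjusted p below 0.05. All 8 members were named, and list genes past the threshold. Levels add no pseudocount, and likeness one of 0.5. Ratios used genes of at least 1 mean CPM in each group. Alternatives were other scalings, no filter, DESeq2 1.42.0, voom of limma 3.58.1, a replicate block, each library left out and copies summed. Scripts were tested on simulated data. Python 3.11.15 with numpy 2.4.6, pandas 2.3.3 and matplotlib 3.10.9 read the ORF lists and drew the plots. T-cell receptor and single-cell data were not used here.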

Additional observations from a re-analysis of the deposited data

How the results depend on the processing

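With 2 libraries a group, 1 KO footprint library of 14555963 counts and copies that share reads, small differences were not detectable. Where a library was left out, the lone library of that group was assumed to vary like the others. Counts of members past the threshold in input RNA were 2 without the filter and 2 to 5 with a library left out, against 4. In footprints they were 1 with copies summed (chosen after seeing the data) and 0 with any library left out, against 0. In translational efficiency they were 0 with limma voom, 0 with the replicate block and 0 to 1 with a library left out, against 1; with library totals the 1 call was Azin1, not Odc1. The median ratio of footprints to RNA was 0.195 (SCR) and 0.188 (KO) with TMM library sizes and 0.107 and 0.104 in the authors' deposited table, against 0.179 and 0.204. The values of the authors' deposited table were 0.597 times those computed here in SCR cells and 0.507 to 0.511 times in KO cells for all 8 members, a nearly constant change of scale within a genotype. With copies summed, the medians were 0.241 and 0.264. For the other changes, the cause was not tested.

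Of 294 values of single members under these settings, 243 kept their direction and call and 31 changed sign, all of them for members near 0. With library totals, input RNA gave -0.068 for Oaz2 and -0.057 for Azin1, footprints 0.10 for Oaz2 and 0.094 for Sat1, and translational efficiency 0.18 for Oaz2 and 0.21 for Sms. With RLE factors, Oaz2 had -0.00090 in input RNA and Sms 0.024 in translational efficiency, and with DESeq2 -0.00085 and 0.025. With voom, Oaz2 had 0.0061 in footprints and Sms 0.00064 in translational efficiency. With copies summed, Oaz2 had -0.0093 in input RNA and 0.000070 in footprints, and Sms 0.024 in translational efficiency. Without the filter, Odc1 footprints had -0.044. With a library left out, values ran from -0.093 to 0.094 for Oaz2 and -0.019 to 0.046 for Azin1 in input RNA. In footprints they ran from -0.063 to 0.086 for Odc1, -0.023 to 0.16 for Oaz1, -0.21 to 0.15 for Oaz2 and -0.15 to 0.093 for Sat1. In translational efficiency they ran from -0.33 to 0.063 for Oaz2 and -0.12 to 0.039 for Sms.

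The replicate block gave 4, 0 and 0 members in input RNA, footprints and translational efficiency, and -0.0020 for Oaz2 in input RNA; over all genes it called 3659, 0 and 0. Over 11894 genes, deviations of same-numbered libraries had an r of 0.049 (input RNA) and -0.0021 (footprints), so the numbers were not shown to pair the libraries.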
